A study of Mus musculus with 8 samples.

Results

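The 10 genes described here belong to the insulin-like growth factor (IGF) system: the ligands Igf1 and Igf2, the receptors Igf1r and Igf2r, and the binding proteins Igfbp2 to Igfbp7. They were listed by name, and for each gene the assembled locus that overlapped the annotated mm9 gene or 1 of its transcripts best, with at least 0.5 of their joint length in common, was read in every sample. They are 10 of 20198 annotated genes that could be read in each of the 8 samples. The members had been listed with earlier results of these samples in view.

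The RNA-Seq data come from NIH3T3, a fibroblast line derived from mouse embryos that can respond to Hedgehog, in 4 conditions with 2 samples each. Control cells carried the empty pcDNA3.1 (Zeo+) vector and received vehicle, and Hh-CM cells carried the same vector and received Hh-CM diluted 100-fold. Hh-CM is culture medium taken from HEK293, a line from human embryonic kidney, whose cells carried a transgene for the N-terminus of Sonic Hedgehog, and vehicle is equally diluted medium of HEK293 without it. Esrrb and Esrrb+Hh-CM cells carried the same plasmid with Esrrb, the gene of estrogen related receptor β, an orphan nuclear receptor, and received vehicle or Hh-CM. All cells had been selected with 150 µg/ml Zeocin, and treatment lasted 48 h in medium with 5% newborn calf serum, which brings its own growth factors and hormones. Cells of separate transfections were pooled, and the labels do not tie a sample to a transfection, so that p-values may measure technical spread only.

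IGF1 and IGF2 are secreted peptides that act through the tyrosine kinase receptor IGF1R, which signals through IRS adaptors to PI3K, Akt and mTOR. IGF2R, the cation-independent mannose 6-phosphate receptor, takes up IGF2 and delivers it to lysosomes without a growth signal. IGFBP2 to IGFBP6 bind the ligands with high affinity outside the cell and set how much reaches the receptor, and proteases such as PAPP-A cut some of them and release the ligand. IGFBP7 binds IGFs only weakly and is counted here with the family by its name. Fibroblasts make both ligands and several binding proteins, and Igf2 is an imprinted gene expressed mainly in the embryo.

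Gli1, a direct Hedgehog target, was at 0.0217 and 0.0308 FPKM in Control cells, at 26.8 and 28.1 FPKM in Hh-CM cells, at 0.106 and 0.0371 FPKM in Esrrb cells and at 34.5 and 34.8 FPKM in Esrrb+Hh-CM cells. FPKM count sequenced fragments per length of transcript and per number of mapped fragments in the library. Esrrb itself was listed at 0 in both Esrrb samples, both Esrrb+Hh-CM samples and both Control samples, and at 0.0281 and 0.0203 FPKM in the Hh-CM samples, so its mRNA gives no sign of the transfected gene. The study itself checked the transfected cells by the Esrrb protein and describes it as raised, a measure not analysed here. The names Esrrb and Esrrb+Hh-CM below therefore stand for libraries labelled so, and the cells are called Esrrb-labelled. Hh-CM replicate 2 and Esrrb replicate 1 shared 8080 numbered assembled loci with the same identifier and position, 52.19% of the numbered loci of the former, while no other pair of samples shared more than 106. The tests were therefore repeated without both of them, and each call of a named gene that was lost in this way is given as lost. Fibroblast markers were high, with Col1a2 (type I collagen) at mean levels of 1599 to 1735 FPKM and Vim (vimentin) at 1165 to 1498 FPKM. Of 15 markers of epithelial, endothelial, blood, muscle and fat cells, Cd68 alone was at 1 FPKM or more in at least 2 samples, and Epcam, Krt5, Kdr, Myod1, Myog and Adipoq were at 0 in all 8 samples.

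Of the 10 members, 8 reached an FPKM of 1 in at least 2 samples and were tested among 10286 genes. The test was limma on log2(FPKM + 0.1), in 1 fit of the 4 group means, with Benjamini-Hochberg adjustment over all tested genes. A gene was called when its adjusted p was below 0.05 and its log2 fold change at least 1 in size. On this scale the change of a gene with low FPKM is understated. All comparisons with Control share its 2 samples. With 2 samples against 2, an exact permutation test could not give a p under 0.33, so the limma fit was used throughout.

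Igf1, at chr10:87321010-87399792 in mm9 on the forward strand, was the ligand that rose in both single conditions. Its FPKM was 3.36 and 3.15 in Control, 8.06 and 8.44 in Hh-CM, 6.60 and 6.62 in Esrrb, and 9.74 and 8.74 in Esrrb+Hh-CM samples. The order from Control through Esrrb and Hh-CM to Esrrb+Hh-CM held without overlap between the samples of any neighbouring conditions. Between Control and Hh-CM cells the log2 fold change was 1.32 (standard error 0.0765, limma adjusted p = 0.000312), a 2.49-fold rise. In Esrrb against Control cells it was 1.00 (standard error 0.0765, limma adjusted p = 0.00144), just at the limit of the call, and it was under that limit with a pseudocount of 1 (0.84), without Control replicate 2 (0.96) and without Esrrb replicate 2 (0.999). From Hh-CM to Esrrb+Hh-CM cells the difference of 0.16 did not pass (limma adjusted p = 0.201).

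Igf2, at chr7:149836673-149852721 in mm9 on the reverse strand, was the most abundant member in every condition but Hh-CM, where Igfbp7 was level with it. Its FPKM was 374 and 384 in Control, 345 and 362 in Hh-CM, 1153 and 1148 in Esrrb, and 1010 and 956 in Esrrb+Hh-CM samples. The 4 samples of Esrrb-labelled cells were all at 956 FPKM or more and the other samples all at 384 FPKM or less. In Control cells 1.77% of the tested genes had a higher mean FPKM than Igf2, and in Esrrb cells 0.768% did. Igf2 rose by a log2 fold change of 1.60 between Control and Esrrb cells (standard error 0.0415, limma adjusted p = 4.27e-05) and by 1.47 from Hh-CM to Esrrb+Hh-CM cells (standard error 0.0415, limma adjusted p = 3.34e-05). With Hh-CM the changes were small and in the other direction, -0.10 in cells with the empty vector (limma adjusted p = 0.16) and -0.23 in Esrrb-labelled cells (limma adjusted p = 0.0125, under the fold limit). The locus read for Igf2, chr7:149836673-149846940, matched a shorter transcript by 0.974 of the joint length and the whole annotated gene by 0.64. The Igf2 FPKM lay outside the bounds that Cufflinks gives for it in all 8 samples, and with the midpoint of these bounds in place of the FPKM Igf2 was called in the same comparisons.

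The ligands together thus had summed FPKM of 378 and 387 in Control, 353 and 370 in Hh-CM, 1160 and 1155 in Esrrb, and 1020 and 964 in Esrrb+Hh-CM samples. Nearly all of this was Igf2, whose FPKM was 112 and 122 times that of Igf1 in Control samples. The ratio was 42.9 and 42.8 in Hh-CM, 175 and 174 in Esrrb, and 104 and 109 in Esrrb+Hh-CM samples. It was lowest where Igf1 alone had risen and highest where the rise of Igf2 exceeded that of Igf1.

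**Figure D1:**
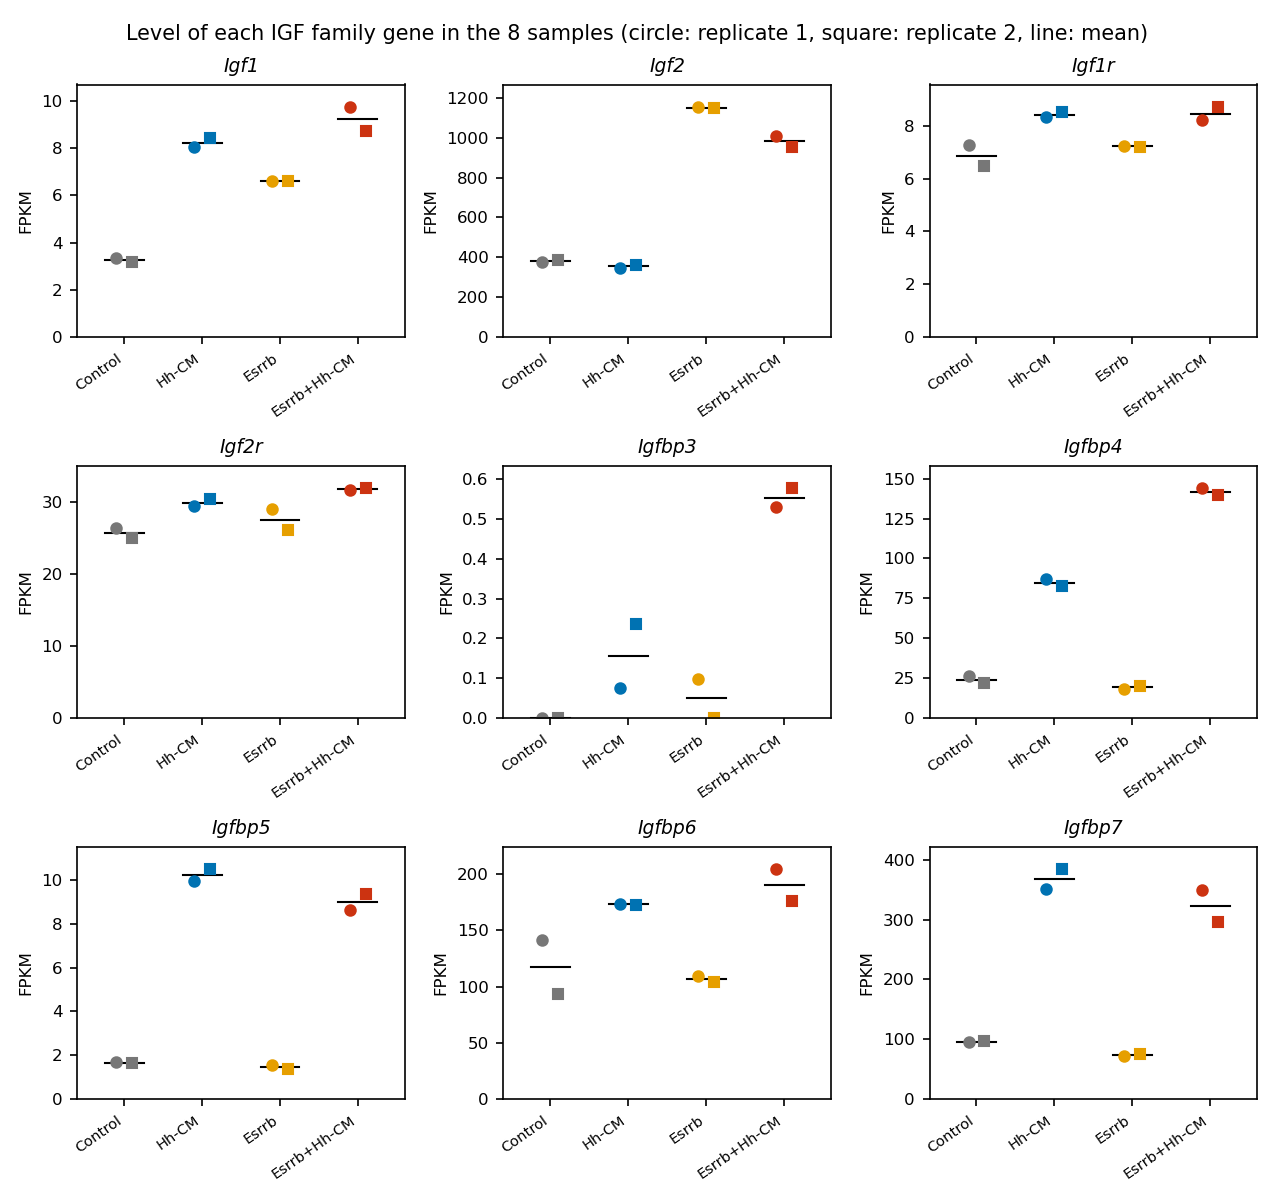
FPKM (linear axis from 0) of the members with any value above 0 in the 4 conditions, with circles for replicate 1, squares for replicate 2 and lines for the mean of 2 samples. Igf2 has a mean of 1151 FPKM in Esrrb and 379 FPKM in Control samples, whereas Igfbp4, Igfbp5 and Igfbp7 are high in both conditions with Hh-CM.

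The receptors varied little. Igf1r, at chr7:75097713-75371484 in mm9, had an FPKM of 7.27 and 6.47 in Control, 8.35 and 8.54 in Hh-CM, 7.26 and 7.23 in Esrrb, and 8.24 and 8.71 in Esrrb+Hh-CM samples. The Control samples overlapped the Esrrb samples, and the Hh-CM samples overlapped the Esrrb+Hh-CM samples. Its log2 fold change was 0.30 between Control and Hh-CM cells (standard error 0.0732, limma adjusted p = 0.0433) and 0.22 between Esrrb and Esrrb+Hh-CM cells (limma adjusted p = 0.0815). Igf2r, at chr17:12875272-12962530 in mm9, had 26.4 and 24.9 FPKM in Control, 29.5 and 30.4 in Hh-CM, 29.0 and 26.0 in Esrrb, and 31.6 and 31.9 in Esrrb+Hh-CM samples. Both receptors were highest in Esrrb+Hh-CM cells, at 0.30 and 0.31 above Control on the log2 scale (limma adjusted p = 0.0246 and 0.0139), which is far under the fold limit. Neither was called in any comparison.

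Airn, a long noncoding RNA, starts within Igf2r and is transcribed antisense to it, and their annotated spans overlap by 28354 bases. Airn was at 16.7 and 16.7 FPKM in Control, 17.5 and 17.6 in Hh-CM, 12.4 and 10.8 in Esrrb, and 8.62 and 6.66 in Esrrb+Hh-CM samples. Its change from Control to Esrrb+Hh-CM cells, -1.13 (limma adjusted p = 0.00161), was called, while Igf2r was slightly higher there. The libraries were made with a stranded kit, but whether the counting used strand is not given in the sources used here, so reads of the overlapping part cannot be told apart. The Airn call was lost without Esrrb+Hh-CM replicate 2 and with the midpoint of the Cufflinks bounds. From Hh-CM to Esrrb+Hh-CM cells Airn fell by 1.20 on the log2 scale (limma adjusted p = 0.00386), a call lost with that midpoint and without Hh-CM replicate 2 and Esrrb replicate 1 together.

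Of the binding proteins, Igfbp4, Igfbp5 and Igfbp7 rose together with Hh-CM, with either vector. The 250 bases before the annotated start of each, from RefSeq on GRCm38.p6, are shown because these genes moved together. They lie at chr11:99040994-99041243 (forward strand), chr1:72874866-72875115 (reverse strand) and chr5:77408046-77408295 (reverse strand), and are written 5′ to 3′ along the gene. Capitals mark the TATA box letters TATAAA, searched on the given strand, and the GC box letters GGGCGG, searched on both strands.
Igfbp4: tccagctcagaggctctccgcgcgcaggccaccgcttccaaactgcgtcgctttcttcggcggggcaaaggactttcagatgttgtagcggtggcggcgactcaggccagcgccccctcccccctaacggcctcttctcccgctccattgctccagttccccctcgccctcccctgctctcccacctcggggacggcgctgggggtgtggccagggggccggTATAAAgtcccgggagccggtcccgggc
Igfbp5: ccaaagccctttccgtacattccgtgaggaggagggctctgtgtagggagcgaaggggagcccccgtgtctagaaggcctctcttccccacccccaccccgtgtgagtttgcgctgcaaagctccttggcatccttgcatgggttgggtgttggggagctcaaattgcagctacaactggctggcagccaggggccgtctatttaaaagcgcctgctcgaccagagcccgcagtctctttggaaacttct
Igfbp7: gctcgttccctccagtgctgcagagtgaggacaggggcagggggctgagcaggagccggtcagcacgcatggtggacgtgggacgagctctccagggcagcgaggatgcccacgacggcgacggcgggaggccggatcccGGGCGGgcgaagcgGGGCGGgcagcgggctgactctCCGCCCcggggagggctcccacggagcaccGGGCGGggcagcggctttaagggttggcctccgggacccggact

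The 3 windows differed in base composition, with 69.2% G or C and 22 CpG in that of Igfbp4, 58.8% and 10 CpG in that of Igfbp5, and 74% and 26 CpG in that of Igfbp7, against medians of 52.4% and 6 CpG over 32851 RefSeq promoters. The TATAAA of Igfbp4 began 28 bases before the start, and these letters stood in 7.59% of all promoter windows. The GGGCGG letters were found 4 times in the window of Igfbp7 and in 32.7% of all windows. The Gli motif GACCACCCA and the extended estrogen-related receptor motif TCAAGGTCA were searched on both strands in all 14 member windows, which cover all 10 members, and neither was found. They stood in 0.225% and 0.387% of all windows. The shorter AAGGTCA, contained in the latter motif, was found in the Igf1r window and in 4.08% of all windows. These are matches of letters in a short window and say nothing of binding.

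Igfbp4, a binding protein that is cut by PAPP-A, lies at chr11:98902558-98913969 in mm9 on the forward strand. Its FPKM was 25.9 and 22.1 in Control, 86.8 and 82.7 in Hh-CM, 18.3 and 20.0 in Esrrb, and 144.0 and 139.5 in Esrrb+Hh-CM samples. The conditions did not overlap in any neighbouring pair, and Esrrb cells were the lowest while Esrrb+Hh-CM cells were the highest. The log2 fold change with Hh-CM was 1.82 in cells with the empty vector (standard error 0.0861, limma adjusted p = 0.000153) and 2.88 in Esrrb-labelled cells (standard error 0.0861, limma adjusted p = 2.79e-05), that is 3.54-fold and 7.38-fold. From Hh-CM to Esrrb+Hh-CM cells it was 0.74 (limma adjusted p = 0.0048), under the fold limit, and between Control and Esrrb cells it was -0.32 (limma adjusted p = 0.0584).

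Igfbp5 is a binding protein known for its hold on extracellular matrix, at chr1:72904506-72921458 in mm9 on the reverse strand. It was at 1.66 and 1.61 FPKM in Control, 9.97 and 10.49 in Hh-CM, 1.54 and 1.34 in Esrrb, and 8.65 and 9.35 in Esrrb+Hh-CM samples. All 4 samples with Hh-CM were above 8 FPKM and all 4 with vehicle below 2 FPKM. Its log2 fold change with Hh-CM was 2.57 with the empty vector (standard error 0.0961, limma adjusted p = 7.7e-05) and 2.56 in Esrrb-labelled cells (standard error 0.0961, limma adjusted p = 5.33e-05). These are the largest and the second largest Hh-CM responses of the tested members in the respective cells, although the gene remained 1 of the less abundant binding proteins, with 92.41% of tested genes above it in Control and 56.12% in Hh-CM cells.

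Igfbp7, secreted and found in vessels and connective tissue, lies at chr5:77778265-77837070 in mm9 on the reverse strand. Its FPKM was 94.2 and 97.4 in Control, 351 and 384 in Hh-CM, 72.1 and 75.1 in Esrrb, and 350 and 296 in Esrrb+Hh-CM samples. The log2 fold change with Hh-CM was 1.94 with the empty vector (standard error 0.0878, limma adjusted p = 0.000135) and 2.13 in Esrrb-labelled cells (standard error 0.0878, limma adjusted p = 6.04e-05). Between Control and Esrrb cells it was lower by 0.38 on the log2 scale (-0.38, limma adjusted p = 0.0388), which did not reach the fold limit. The Hh-CM and Esrrb+Hh-CM samples lay next to each other, at 351 and 350 FPKM at their nearest, and differed by -0.19 (limma adjusted p = 0.189).

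Igfbp6, which prefers IGF2 over IGF1 as its ligand, lies at chr15:101974793-101979942 in mm9 on the forward strand. Its FPKM was 142 and 93.6 in Control, 174 and 173 in Hh-CM, 110 and 104 in Esrrb, and 204 and 176 in Esrrb+Hh-CM samples. The Control samples lay far apart and enclosed both Esrrb samples, while every sample with Hh-CM was above every sample with vehicle. The log2 fold change with Hh-CM was 0.59 with the empty vector (standard error 0.189, limma adjusted p = 0.0894) and 0.83 in Esrrb-labelled cells (standard error 0.189, limma adjusted p = 0.0275), and neither was called. The former was 0.89 without Control replicate 1 (limma adjusted p = 0.00977) and 0.29 without Control replicate 2, and the latter was 1.04 and called with the midpoint of the Cufflinks bounds (limma adjusted p = 0.0105). From Control to Esrrb+Hh-CM cells it was 0.72 (limma adjusted p = 0.0316), and without Control replicate 1 it was 1.02 and called (limma adjusted p = 0.00325).

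Igfbp2 and Igfbp3 were at or near 0. Igfbp2, at chr1:72871077-72899048 in mm9, was listed at 0 in all 8 samples. The annotated span of its neighbour Igfbp5 lies 5457 bases beyond its end, and Igfbp5 was measured throughout. In these files 0 is not always a sign of no reads: 8 genes were listed at 0 in both samples of 1 condition and at 10 FPKM or more in the other 6 samples. Igfbp3, at chr11:7106089-7113926 in mm9, was listed at 0 in both Control samples and in Esrrb replicate 2. Its FPKM in the Hh-CM samples was 0.0754 and 0.236, that of Esrrb replicate 1 was 0.0984, and those of the Esrrb+Hh-CM samples were 0.530 and 0.577. Scaled by the relative depth of the libraries, these came to 1, 4.33, 1, 6 and 5.12 times the smallest value. As 4.33 and 5.12 are not whole numbers, the smallest value cannot be taken as 1 read, and the read numbers are not known. The gene did not reach the limit for testing, and no change is given.

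Over the 6 binding proteins the summed FPKM was 263 and 215 in Control, 622 and 650 in Hh-CM, 202 and 200 in Esrrb, and 707 and 621 in Esrrb+Hh-CM samples. Without Igfbp7 the sums were 169 and 117, 271 and 266, 130 and 125, and 358 and 325 in the same order. The make-up of the sum changed with Hh-CM. The share of Igfbp6 was 48.7% ± 7.20 in Control against 27.3% ± 0.984 in Hh-CM cells (SD, n = 2 each), and that of Igfbp7 was 40.6% ± 6.80 against 57.7% ± 1.85. In Esrrb cells Igfbp6 made up 53.1% ± 1.76 and Igfbp7 36.6% ± 1.21. Without Hh-CM replicate 2 and Esrrb replicate 1 the share of Igfbp7 was 56.4% in Hh-CM and 37.5% in Esrrb samples, and that of Igfbp6 was 28.0% and 51.9%. In Esrrb+Hh-CM cells the shares were 28.6% ± 0.389 for Igfbp6, 48.5% ± 1.32 for Igfbp7 and 21.4% ± 1.50 for Igfbp4, against 13.3% ± 0.889 for Igfbp4 in Hh-CM cells. Igfbp5 held 1.61% ± 0.00604 at most. Some FPKM behind these shares lay above their Cufflinks bounds. For Igfbp6 this held in both Control samples, at 142 (bounds 105 to 120) and 93.6 (bounds 75.9 to 85.8) FPKM, and in both Esrrb samples. It also held for Igfbp6 in Hh-CM replicate 1, at 174 FPKM (bounds 145 to 159). For Igfbp7 it held in Hh-CM replicate 2, at 384 FPKM (bounds 316 to 333), in Esrrb replicate 2 and in both Esrrb+Hh-CM samples. For Igfbp4 it held in Hh-CM replicate 2, at 82.7 FPKM (bounds 71.8 to 79.6), and in Esrrb+Hh-CM replicate 1, at 144.0 FPKM (bounds 126 to 139). The shares were not computed with the midpoint of the bounds. FPKM are relative to all mapped fragments of a library and give no absolute amount. A change in the number of cells that express a gene and a change in its RNA per cell cannot be told apart in them.

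**Figure D2:**
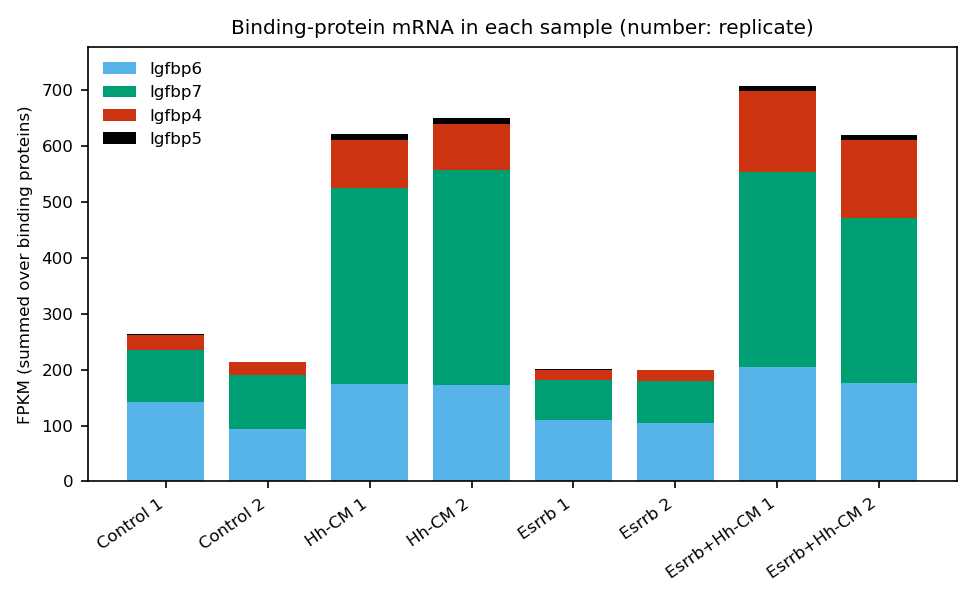
Summed FPKM of the binding proteins (vertical axis from 0) in each of the 8 samples, stacked by gene, with Igfbp2 (0) and Igfbp3 (0.577 FPKM at most) not drawn. The samples with Hh-CM reach 621 to 707 FPKM and those with vehicle 200 to 263 FPKM, and the Igfbp4 layer is thickest in Esrrb+Hh-CM samples.

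Read by comparison, 4 of the 8 tested members (Igf1, Igfbp4, Igfbp5 and Igfbp7) were called as rising between Control and Hh-CM cells, where 1.96% of all tested genes rose and 0.797% fell. The median log2 fold change was 0.95 over the 8 members and 0.04 over all tested genes. In Esrrb cells 2 members (Igf1 and Igf2) rose against Control, where 0.836% of tested genes rose and 0.632% fell, and the members' median was -0.02 beside 0.05 over all genes. In Esrrb+Hh-CM cells the 5 members called in either single comparison rose against Control, where 4.6% of tested genes rose and 1.62% fell, with a median of 1.42 beside 0.08. Igf2 was the 1 member that rose from Hh-CM to Esrrb+Hh-CM cells, where 1.11% of tested genes rose and 0.875% fell. Igfbp4, Igfbp5 and Igfbp7 rose between Esrrb and Esrrb+Hh-CM cells, where 3.47% of tested genes rose and 1.34% fell, with a median of 0.65 beside 0.04. No member was called as falling in any of the 5 comparisons. The members were listed with earlier results of these samples in view, so these counts and medians are a description only. Without Hh-CM replicate 2 and Esrrb replicate 1 together the numbers of members called were 4, 2, 5, 1 and 3, as with all samples.

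**Figure D3:**
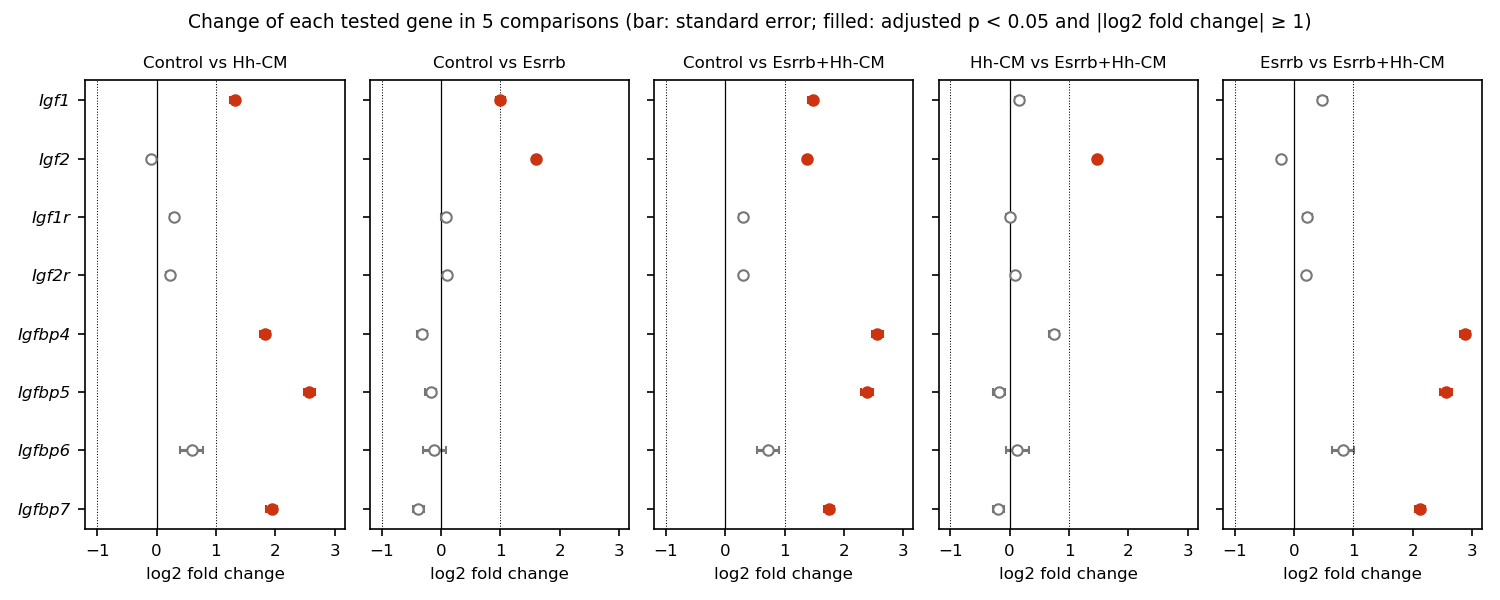
Log2 fold change of the 8 tested members in the 5 comparisons, on the scale of log2(FPKM + 0.1), with bars for the standard error and filled points for called changes (dotted lines at the fold limit). Igfbp4, Igfbp5 and Igfbp7 are beyond the limit wherever Hh-CM was added, and Igf2 wherever Esrrb-labelled cells are set against cells with the empty vector.

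Whether the Hh-CM response differed between the vectors was tested as an interaction, the Hh-CM response of Esrrb-labelled cells minus that of cells with the empty vector, called at an adjusted p below 0.05. Igf1 and Igfbp4 passed, 2 of 8 members, where 1.35% of all tested genes passed. Both are among the genes that the study itself singled out in these samples, so this is not independent evidence. For Igf1 the response was weaker in Esrrb-labelled cells, 0.48 (limma adjusted p = 0.0079, under the fold limit) against 1.32. The difference was -0.84 (standard error 0.108, limma adjusted p = 0.0329). By qPCR, a measure not analysed here, the study describes the Igf1 response as lost with Esrrb, while here a smaller rise remained. For Igfbp4 the response was stronger, 2.88 against 1.82, a difference of 1.06 (standard error 0.122, limma adjusted p = 0.0245). Both calls were lost with the replicate block (limma adjusted p = 0.0775 for Igf1 and 0.0669 for Igfbp4), without any 1 of the Hh-CM or Esrrb samples, and without an FPKM limit. That of Igf1 was lost without either Control sample as well, and that of Igfbp4 without either Esrrb+Hh-CM sample. Over all alternatives the limma adjusted p ranged from 0.0265 to 0.238 for Igf1 and from 0.0144 to 0.194 for Igfbp4. Without Hh-CM replicate 2 and Esrrb replicate 1 together the differences were -0.81 and 0.96 (limma adjusted p = 0.238 and 0.194). The differences of Igfbp5 (-0.01, standard error 0.136), Igfbp7 (0.19, standard error 0.124), Igfbp6 (0.24, standard error 0.268), Igf2 (-0.13, standard error 0.0586), Igf1r (-0.07, standard error 0.104) and Igf2r (-0.01, standard error 0.0888) did not pass.

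**Figure D4:**
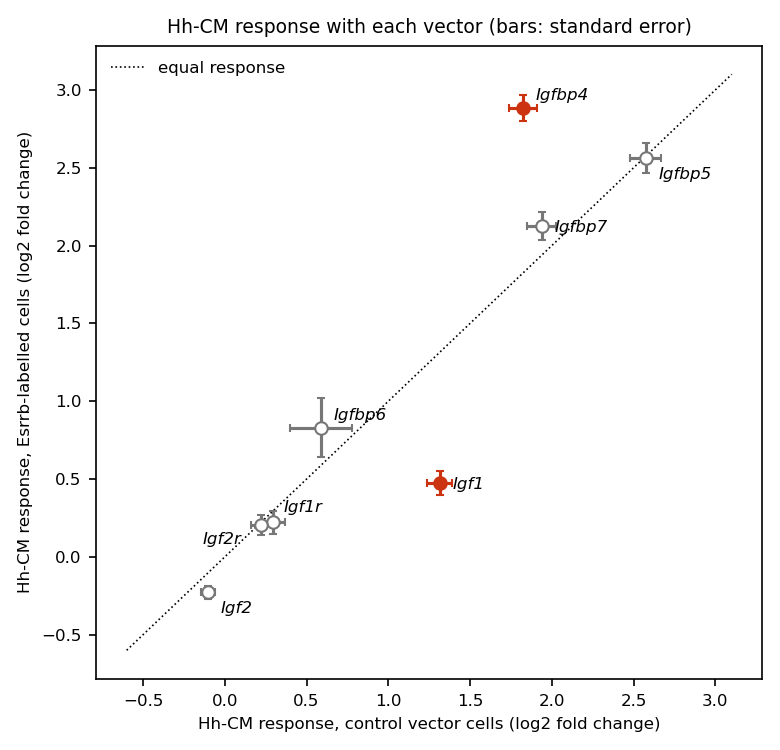
Log2 fold change with Hh-CM in cells with the empty vector (horizontal axis) and in Esrrb-labelled cells (vertical axis) for the 8 tested members, with bars for standard errors, a dotted line of equal response and filled points where the difference passed. Igfbp4 lies above the line and Igf1 below it, and Igfbp5 lies on it.

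The proteases that cut IGF binding proteins, and their inhibitors, were read from a list of 8 genes, 6 of which were tested. In Esrrb cells Pappa and Pappa2 fell and Adam12 and Stc1 rose. Pappa2 (pappalysin 2, which cuts IGFBP3 and IGFBP5) was at 6.78 and 7.21 FPKM in Control, 10.5 and 10.5 in Hh-CM, 2.06 and 2.22 in Esrrb, and 4.53 and 4.73 in Esrrb+Hh-CM samples. It was lower in Esrrb-labelled cells under either treatment, by a log2 fold change of -1.67 with vehicle (limma adjusted p = 0.000223) and -1.16 with Hh-CM (limma adjusted p = 0.000649). With Hh-CM it was higher by 1.08 in Esrrb-labelled cells (limma adjusted p = 0.000297) and by 0.58, under the fold limit, with the empty vector.

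Stc1 (stanniocalcin 1, which can inhibit PAPP-A) ran the other way, at 0.582 and 0.571 FPKM in Control, 0.175 and 0.195 in Hh-CM, 3.34 and 3.36 in Esrrb, and 1.47 and 1.26 in Esrrb+Hh-CM samples. Its log2 fold change was 2.35 between Control and Esrrb cells (limma adjusted p = 0.00141) and -1.25 between Control and Hh-CM cells (limma adjusted p = 0.00688). The latter was lost with a pseudocount of 1 and without Hh-CM replicate 2 and Esrrb replicate 1 together. Stc1 reached 1 FPKM only in Esrrb-labelled samples and was tested through them, so its p-values are no support beyond the values themselves. Where every sample had to reach 1 FPKM, Stc1 was not tested. Adam12, a metalloprotease that cuts IGFBP3 and IGFBP5, likewise fell with Hh-CM (-1.07, limma adjusted p = 0.000819) and rose in Esrrb cells (1.09, limma adjusted p = 0.00142). Its FPKM was 7.13 and 7.47 in Control, 3.62 and 3.25 in Hh-CM, 15.9 and 15.4 in Esrrb, and 5.60 and 6.18 in Esrrb+Hh-CM samples. The fall with Hh-CM was not called with a pseudocount of 1 or without Hh-CM replicate 2, alone or together with Esrrb replicate 1.

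Htra1, a serine protease, fell with Hh-CM, from 3.20 and 2.32 FPKM in Control to 0.612 and 0.641 in Hh-CM samples, and from 1.24 and 2.54 in Esrrb to 0.179 and 0.458 in Esrrb+Hh-CM samples. Its log2 fold changes of -1.96 and -2.25 had a standard error of 0.455 (limma adjusted p = 0.0355 and 0.0182) and the first was lost without any 1 of the Control or Hh-CM samples. The second was lost without Esrrb replicate 2 or without Esrrb+Hh-CM replicate 1, and both were lost without Hh-CM replicate 2 and Esrrb replicate 1 together. Both were also lost without an FPKM limit, and the second with only the compared groups. Htra1 reached 1 FPKM only in samples with vehicle and was tested through them, so its p-values are no support beyond the values themselves. Where every sample had to reach 1 FPKM, Htra1 was not tested. Pappa (pappalysin 1, the protease of IGFBP4) was at 9.77 and 11.9 FPKM in Control and 5.59 and 4.96 in Esrrb samples, a log2 fold change of -1.02 (limma adjusted p = 0.00377) that was not called with a pseudocount of 1, without Control replicate 2, without Esrrb replicate 2, or without Hh-CM replicate 2 and Esrrb replicate 1 together. Over the list, 0 genes rose and 3 fell between Control and Hh-CM cells, 2 rose and 2 fell between Control and Esrrb cells, 1 rose and 1 fell both from Control to Esrrb+Hh-CM cells and from Hh-CM to Esrrb+Hh-CM cells, and 1 rose and 3 fell between Esrrb and Esrrb+Hh-CM cells. Of the last, the falls of Htra1 and Stc1 were lost without Hh-CM replicate 2 and Esrrb replicate 1 together. None passed the test of the interaction. Over all tested genes 1.96% rose and 0.797% fell between Control and Hh-CM cells, and 0.836% and 0.632% between Control and Esrrb cells. From Control to Esrrb+Hh-CM cells the shares were 4.6% and 1.62%, and from Hh-CM to Esrrb+Hh-CM cells 1.11% and 0.875%. Between Esrrb and Esrrb+Hh-CM cells they were 3.47% and 1.34%. The list was chosen with earlier results of these data known, so its counts are a description only.

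**Figure D5:**
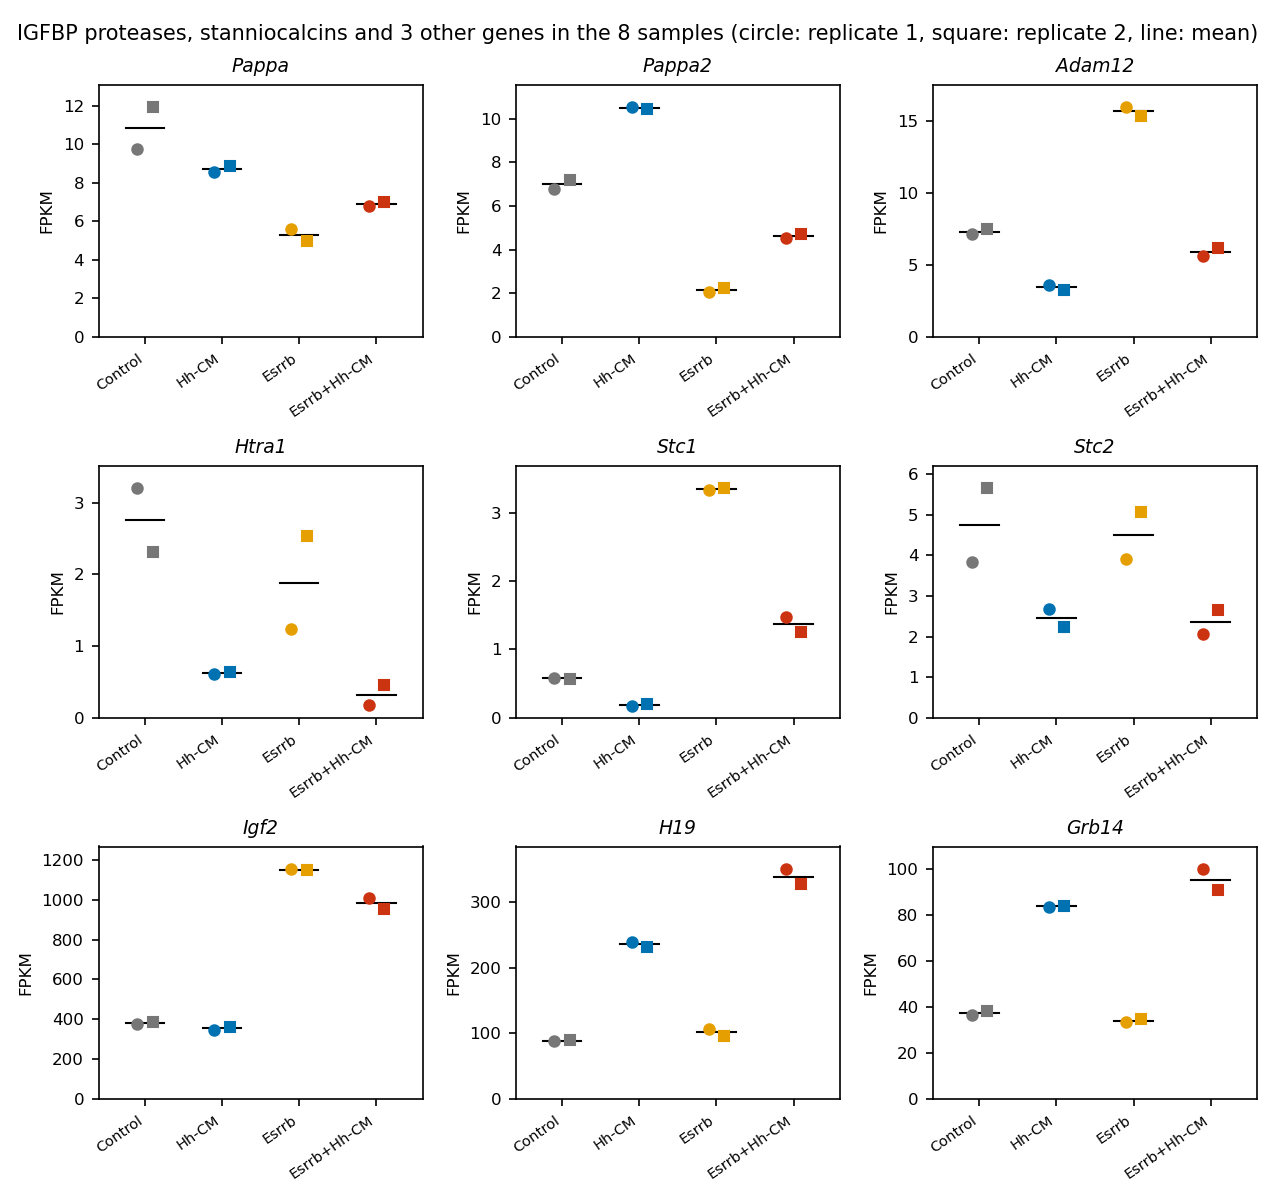
FPKM (linear axis from 0) of 6 proteases and inhibitors of the list and of Igf2, H19 and Grb14 in the 4 conditions, with circles for replicate 1, squares for replicate 2 and lines for the mean. Stc1 and Adam12 are highest in Esrrb samples, where Pappa and Pappa2 are lowest, and H19 and Grb14 are high where Hh-CM was added.

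H19, the imprinted noncoding RNA next to Igf2, had another pattern than Igf2. The genes share an imprinting control region and enhancers, and in mm9 H19 (chr7:149761434-149764048) lies 72624 bases from the annotated Igf2 span. H19 was at 88.4 and 88.9 FPKM in Control, 240 and 231 in Hh-CM, 107 and 96.0 in Esrrb, and 350 and 328 in Esrrb+Hh-CM samples. It rose with Hh-CM by a log2 fold change of 1.41 with the empty vector (limma adjusted p = 0.000119) and 1.74 in Esrrb-labelled cells (limma adjusted p = 4.23e-05), where Igf2 did not rise. Igf2 in turn rose between Control and Esrrb cells, where H19 did not pass. Of the list of 13 imprinted growth genes, which includes H19 and Airn, 8 were tested, and the numbers that rose and fell were 2 and 0, 1 and 0, 2 and 1, 0 and 1, and 1 and 0 in the 5 comparisons, in the order above. The shares over all tested genes were 1.96% and 0.797%, 0.836% and 0.632%, 4.6% and 1.62%, 1.11% and 0.875%, and 3.47% and 1.34%. This list too was chosen with earlier results of these data known. Peg3, a zinc-finger gene, rose between Control and Esrrb cells (1.15, limma adjusted p = 0.000908) and from Control to Esrrb+Hh-CM cells (1.36, limma adjusted p = 0.000128). Dlk1, a Notch-like ligand of preadipocytes, was at 448 and 450 FPKM in Control, 2590 and 3030 in Hh-CM, 2042 and 502 in Esrrb, and 621 and 605 in Esrrb+Hh-CM samples. The Esrrb sample near the Hh-CM samples is replicate 1, which shares its assembled loci with Hh-CM replicate 2, and the Dlk1 call with Hh-CM (2.64, limma adjusted p = 0.0329) was lost without any 1 of the Control, Hh-CM or Esrrb+Hh-CM samples but not without the 2 samples that share loci. Plagl1, a zinc-finger factor of the imprinted network, passed the interaction (-0.80, limma adjusted p = 0.0407), a call lost without any 1 of the 8 samples, without the 2 that share loci, and with the replicate block.

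Of the receptor adaptors and the PI3K, Akt and mTOR genes, 27 of 28 were tested. The numbers that rose were 1, 1, 1, 0 and 1 in the 5 comparisons, in the order above, and 0 fell in each. Over all tested genes 1.96%, 0.836%, 4.6%, 1.11% and 3.47% rose, and 0.797%, 0.632%, 1.62%, 0.875% and 1.34% fell. Grb14, an adaptor that binds and restrains insulin family receptors, was at 36.4 and 38.1 FPKM in Control, 83.3 and 83.9 in Hh-CM, 33.3 and 34.6 in Esrrb, and 99.7 and 90.7 in Esrrb+Hh-CM samples. It rose with Hh-CM by a log2 fold change of 1.16 with the empty vector (limma adjusted p = 0.000157) and 1.48 in Esrrb-labelled cells (limma adjusted p = 5.33e-05), and was called under all 20 alternatives in each. Pik3r3, a regulatory subunit of PI3K, rose between Control and Esrrb cells (1.06, limma adjusted p = 0.00445), and was not called with a pseudocount of 1 or without Esrrb replicate 2. The related adaptor Grb10, itself imprinted, was higher by 0.39 with Hh-CM and by 0.70 in Esrrb+Hh-CM cells than in Control cells (limma adjusted p = 0.00222 and 0.000129), under the fold limit. Irs1, the main docking protein of the receptor, had a mean FPKM of 12.7 ± 3.33 in Control against 24.1 ± 6.48 in Hh-CM cells (SD, n = 2 each), a difference that did not pass (limma adjusted p = 0.0742). The median log2 fold change of the 27 genes was 0.08, 0.04, 0.13, -0.03 and -0.01 in the 5 comparisons, close to the 0.04, 0.05, 0.08, 0.05 and 0.04 of all tested genes.

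For the remaining lists, the shares over all tested genes are those given with the counts above. Of 10 IGF family genes outside the members, Insr, Igf2bp1, Igf2bp2 and Igf2bp3 were tested and none was called. Insr, the insulin receptor, had its lowest mean level, 6.0 FPKM, in Esrrb+Hh-CM cells and its highest, 6.73 FPKM, in Esrrb cells, and Ins1, Ins2, Insrr and Igfbpl1 were listed at 0 in all 8 samples. All 8 genes of the growth hormone axis, which drives Igf1 in liver, were tested and none was called in any comparison. The growth hormone receptor gene Ghr had mean levels of 256 ± 22.3 FPKM in Control and 199 ± 15.4 in Hh-CM cells, while those of Esrrb-labelled cells were 261 ± 4.72 with vehicle and 174 ± 14.1 with Hh-CM (SD, n = 2 each), and its change with Hh-CM, -0.36 and -0.58, was under the fold limit (limma adjusted p = 0.0435 and 0.00665). Of 15 FOXO factors and target genes, which are held down when Akt is active, 14 were tested and 1 was called, Trim63, a muscle ubiquitin ligase at low level, by -1.78 from Control to Esrrb+Hh-CM cells (limma adjusted p = 0.0145). That call held under 14 of 20 alternatives, and was lost with a pseudocount of 1, with either other FPKM limit, with only the compared groups, without Control replicate 1, and without Hh-CM replicate 2 and Esrrb replicate 1 together. Trim63 reached 1 FPKM only in samples with vehicle and was tested through them, so its p-value is no support beyond the values themselves. These were 2.15 and 1.74 FPKM in Control and 0.313 and 0.749 FPKM in Esrrb+Hh-CM samples. Of 9 fibroblast markers 8 were tested and Thy1, a surface glycoprotein, was called, by 2.18 and 2.46 with Hh-CM (limma adjusted p = 2.5e-05 and 1.08e-05).

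For each called member the genes with the most similar pattern were sought by Pearson correlation of log2(FPKM + 0.1) over the 8 samples, among 10278 tested genes that are not members. The 8 samples fall into 4 conditions and every gene was read in the same libraries, so the coefficients describe these samples only. For Igfbp7 they were Smad3 (0.999) and Optn (0.998), for Igfbp5 Arhgap21 (0.999) and Klf4 (0.998), and for Igfbp4 Fkbp5 (0.992) is given. Igf2 was most like Tgfbr2 (0.998) and Ms4a4d (0.995), and Igf1 most like Kctd12b (0.986) and Ttyh3 (0.984). Over the 6 samples left without Hh-CM replicate 2 and Esrrb replicate 1, the coefficients of these pairs ranged from 0.986 to 0.999. Tgfbr2, a receptor of transforming growth factor β, was at 36.9 and 37.3 FPKM in Control, 36.4 and 36.3 in Hh-CM, 65.9 and 65.3 in Esrrb, and 64.2 and 62.0 in Esrrb+Hh-CM samples, so it stood apart by vector as Igf2 did. Smad3, a factor of the same growth factor's pathway, was at 17.0 and 17.4, 27.5 and 28.8, 16.1 and 16.1, and 26.9 and 25.7 FPKM in the same order, and stood apart by treatment as Igfbp7 did. Klf4, a zinc-finger factor, stood apart by treatment as well, at mean levels of 14.6, 36.9, 13.7 and 35.7 FPKM.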

How the data were processed

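RNA-Seq of 8 samples, 2 a condition, was analysed. Values were deposited as FPKM. To obtain them, the authors trimmed the reads, used TopHat2 with Bowtie2 to align them to mm9, and assembled transcripts with Cufflinks. There is 1 table a sample. The paper calls them RPKM.

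Identifiers numbered by Cufflinks differ between samples, so each annotated gene was given the locus that overlapped it or 1 of its transcripts best (shared part at least 0.5 of the joint length). Every member had 1 locus in every sample, and the lowest such overlap was 0.967. With the whole gene it was 0.64 for Igf2 and at least 0.967 for the other members. Genes that reached 1 FPKM in 2 or more samples were tested by limma 3.58.1 (R 4.3.3, variance trend on) after adding 0.1 and taking log2. The members and gene lists were chosen with earlier results of these data known. Named are all members, the list genes with the largest called changes (up to 4 a list and comparison), some others of the lists after their values were seen, and the 2 genes most like each called member, of which 1 is not reported here. Adam9, S100a4, Igf2os and Adgre1 were listed but not matched in every sample.

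On simulated data, 91.92% of 99 tested genes changed by 2 on the log2 scale between Control and Hh-CM were recovered, and 5 unchanged genes were called. The simulated spread of the most variable genes was capped. Only changes of 2 were planted, so recovery of changes near the call limit of 1 is not known. Depth, from the steps of low FPKM and relative to Control replicate 1, ranged from 0.743 to 1.54, and read counts are not in the files used here. Replicates differed by at most 1 on the log2 scale for 97.68% to 97.84% of tested genes. Alternatives were other pseudocounts (1 and 0.001), other FPKM limits, the replicate block, only the compared groups, rescaled FPKM, no variance trend, summed loci, an overlap of at least 0.8 and each sample left out. The midpoint of the Cufflinks bounds, and leaving out Hh-CM replicate 2 with Esrrb replicate 1, were added after seeing the data. Other steps used Python 3.11.15, pandas 2.3.3, numpy 2.4.6 and matplotlib 3.10.9.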

Additional observations from a re-analysis of the deposited data

Results flagged for a closer look

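The responses set apart here differed in size between Esrrb-labelled cells and cells with the empty vector, by the interaction test. The Hh-CM response of Igf1 differed between the vectors by -0.84 on the log2 scale (limma adjusted p = 0.0329), being 0.48 in Esrrb-labelled cells and 1.32 in cells with the empty vector. Igf1 was higher with Hh-CM in both replicates under either vector.

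The Hh-CM response of Igfbp4 differed by 1.06 (limma adjusted p = 0.0245), being 2.88 in Esrrb-labelled cells and 1.82 in cells with the empty vector, again in both replicates. Over the settings in which a single sample was left out, the difference ranged from 0.947 to 1.18 for Igfbp4 and from -0.917 to -0.763 for Igf1. Each call was lost under 9 of 19 alternatives, among them the replicate block (limma adjusted p = 0.0775 for Igf1 and 0.0669 for Igfbp4), no FPKM limit and leaving out any 1 Hh-CM or Esrrb sample. With 2 samples a group, no sample could be tested as an outlier.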

How the results depend on the processing

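Of 952 values of member changes under the alternatives, 911 kept their direction and their call. The number of members called between Control and Hh-CM cells and from Hh-CM to Esrrb+Hh-CM cells did not move under any alternative, and that between Esrrb and Esrrb+Hh-CM cells was 4 in place of 3 with the midpoint of the Cufflinks bounds, where Igfbp6 was called, and did not move otherwise. Between Control and Esrrb cells it was 1 in place of 2 with a pseudocount of 1, with rescaled FPKM and with the midpoint of the Cufflinks bounds, where Igf1 was at 0.84, 0.96 and 0.997, and it ranged from 1 to 2 with 1 sample left out. From Control to Esrrb+Hh-CM cells it ranged from 5 to 6 with 1 sample left out.

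The 2 interaction calls were the least stable. None of the members was called without an FPKM limit, where more genes were tested, or with the replicate block, or without Hh-CM replicate 2 and Esrrb replicate 1 (0 in each). With 1 sample left out the number ranged from 0 to 1. The deviations of samples with the same replicate number had a mean correlation of 0.00407, from -0.0593 to 0.0623, so no shift shared by number was seen over all genes. Whether samples with the same number belong to the same transfection cannot be told from this. The replicate block changed no other member call, and lowered the interaction calls over all genes from 139 to 55.

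Some changes that were not called turned sign. Igf1r from Hh-CM to Esrrb+Hh-CM cells was -0.042 with rescaled FPKM and ranged from -0.035 to 0.045 with 1 sample left out. From Control to Esrrb cells Igf1r ranged from -0.0054 to 0.16 and Igfbp6 from -0.41 to 0.19 with 1 sample left out. The interaction ranged with 1 sample left out from -0.15 to 0.010 for Igf1r, from -0.092 to 0.064 for Igf2r, from -0.11 to 0.083 for Igfbp5 and from -0.061 to 0.54 for Igfbp6. Without Hh-CM replicate 2 and Esrrb replicate 1 it was 0.086 for Igf2r and 0.12 for Igfbp5.

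Over all genes, calls between Control and Hh-CM cells fell from 284 to 179 with a pseudocount of 1 and to 185 where every sample had to reach 1 FPKM, between Control and Esrrb cells from 151 to 88 and 70, and those of Esrrb+Hh-CM against Hh-CM cells from 204 to 126 and 110. The interaction had 215 with rescaled FPKM, 84 without the variance trend, 64 with the midpoint of the bounds, 57 without Hh-CM replicate 2 and Esrrb replicate 1, and 62 to 173 with 1 sample left out. The cause was not tested. The FPKM of a member lay outside its own Cufflinks bounds in 19 of 80 values. Igfbp3 was too low in all samples to be tested.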
